A study of Caenorhabditis elegans with 4 samples.

Results

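Genes of meiosis and the synaptonemal complex were examined in adult C. elegans given rifampicin (RIF). The genes were taken from a list of 36 by the gene symbol in the annotation of the array. For 34 of them at least 1 probe set names the gene alone, out of 17118 genes with such a probe set, and the one with the highest mean over the 4 arrays stood for the gene. No probe set of this kind was found for coh-4 or zyg-12. RNA was taken from whole worms of the wild-type strain N2, harvested 8 days into adulthood. Worms treated with RIF were measured on 2 arrays, and worms that received only the solvent DMSO on 2 more. Worms of both groups were moved as young adults to liquid medium with heat-killed OP50 carrying the empty vector L4440. The medium also held carbenicillin, amphotericin B and FuDr (0.6 mM in the labels), and the worms were fed again on day 5. The study's methods give 0.6 mM as the strength of the FuDr solution that was added, so its strength in the medium was lower. FuDr blocks DNA synthesis and was used to stop egg laying, so the germ line of both groups had been exposed to it. The labels of the arrays state no dose of RIF, and 1 of their fields speaks of idr-1 RNAi on the RIF arrays and of control RNAi on the DMSO arrays. The titles, the source names and the study design give DMSO and RIF, and these were used.

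In the gonad of the hermaphrodite, germ cells leave mitosis, enter meiotic prophase and become oocytes along the length of each arm. Cohesin and HORMA-domain proteins first build an axis along each chromosome. Zinc-finger proteins at pairing centres then tie the chromosomes to the nuclear envelope, and the synaptonemal complex joins the paired homologs. Breaks made by the topoisomerase-like enzyme SPO-11 are repaired with the homolog, and some of the repaired breaks become crossovers. Most of the genes below are known for their work in germ cells, though the repair genes also act in other cells. In such bulk RNA, fewer germ cells and less RNA per germ cell cannot be told apart.

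The germ granule genes pgl-1 and glh-1, which mark the germ line, read 6.11 to 7.22 and 6.74 to 7.65 over the 4 arrays. The meiosis genes ranged from a mean of 1.30 for chk-2 to 6.90 for him-3, on the log2 scale of the arrays. The 8 control probe sets for foreign transcripts, which no worm RNA should bind, read 0.44 to 1.62, below every value of these 2 genes, and of the 34 only chk-2 had both group means within that range. Over all probe sets Pearson's r, a correlation across features and not across samples, was 0.981 between the RIF arrays, 0.970 between the DMSO arrays and 0.961 to 0.972 across groups. For 8 transcripts with probe sets at either end, the signal at the 5′ end minus that at the 3′ end (lower where RNA is degraded) had a median of -1.28 and -1.25 on the RIF arrays and -0.99 and -2.16 on the DMSO arrays. DMSO replicate 2 thus stood apart in this measure, and values without that array are given below.

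As a group the meiosis genes had lower values with RIF. All 34 genes had a lower mean with RIF than with DMSO, where 44.2% of all genes had one. Their median log2 difference, RIF minus DMSO, was -0.50, against 0.03 over all genes and -0.08 over the 3467 genes whose levels fall in the middle part of the levels of the meiosis genes, between their quartiles. In 21 of the 34 genes both RIF arrays read below both DMSO arrays, which was the case for 16% of all genes (2735 of 17118). In the other 13 the groups overlapped, and in none did both RIF arrays read above the DMSO arrays. The differences were small, from -0.02 for coh-3 to -1.06 for syp-3. A gene is called lower or higher here when limma gave an unadjusted p under 0.05 and the change was at least 2-fold, the threshold of the study. By this rule 1 of the 34 genes was called lower (2.94%), close to the 1.55% of all genes that were, and 0 were called higher, where 1.27% of all genes were. At an unadjusted p under 0.05, with no limit on size, 0 were higher too, against 751 of 17118 genes. The same p with a value below 0 was reached by 10 of them (29.4%) and by 4.46% of all genes. Many of all genes read near background, and among the 3467 genes of like level the shares were larger. Of these, 322 were at that p and lower, and 870 had both RIF arrays below both DMSO arrays. A log2 difference below 0 was found in 1949 (56.2%). After Benjamini-Hochberg adjustment of the limma p-values over all probe sets the lowest value among the 34 genes was 0.336.

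**Figure D1:**
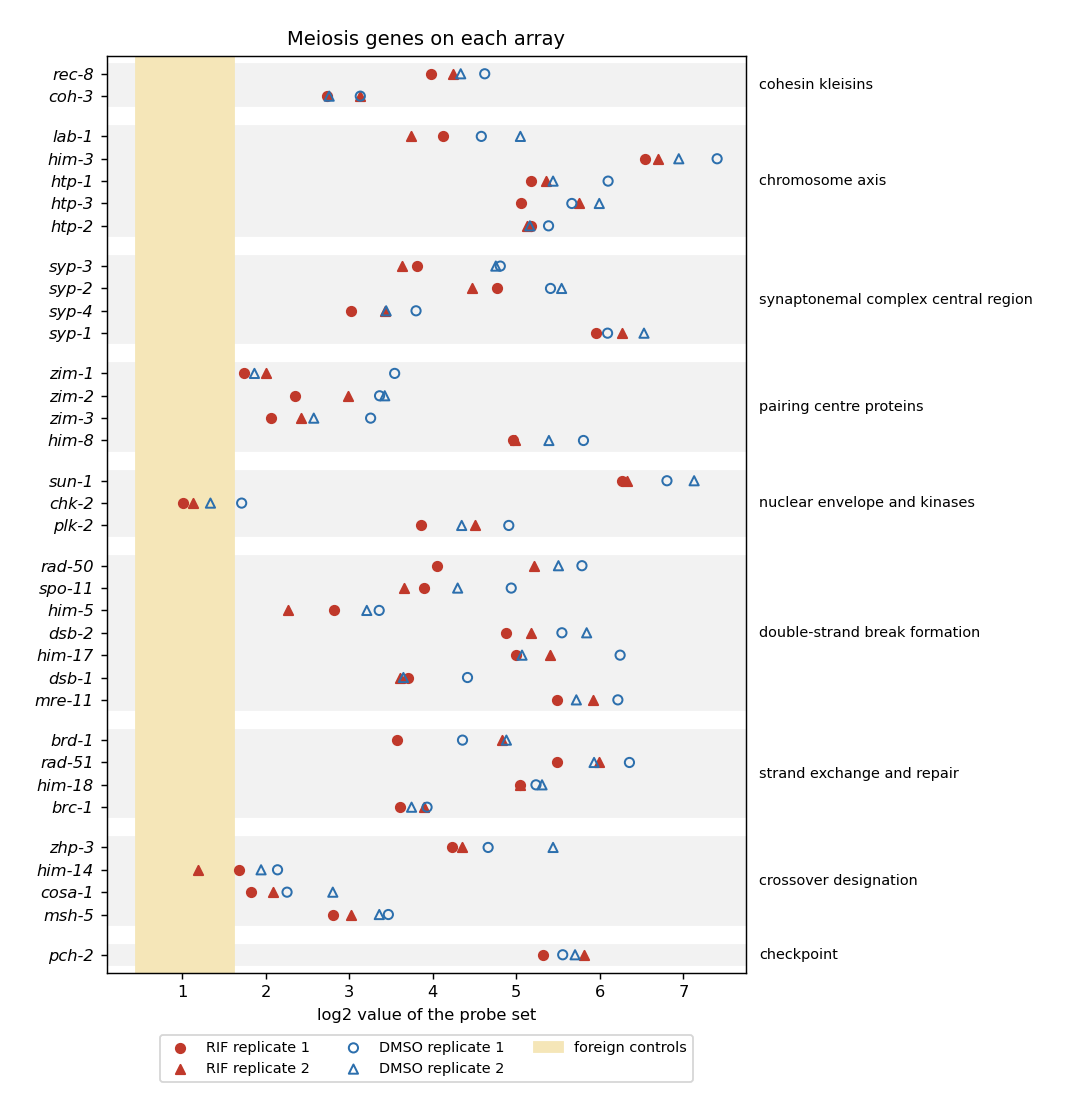
Log2 value (x axis) of each of 34 meiosis genes (y axis, grouped by role) on the 2 RIF arrays (filled) and the 2 DMSO arrays (open). The shaded band, 0.44 to 1.62, is the range of the foreign controls. In 21 genes both filled symbols lie left of both open ones.

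The size of the difference depended on which arrays were compared. The median of the 34 genes was 4.01 on RIF replicate 1 and 4.41 on RIF replicate 2, against 4.86 on DMSO replicate 1 and 4.96 on DMSO replicate 2. RIF replicate 1 gave the lowest of the 4 values in 26 genes, counting him-18 with its equal RIF values, and RIF replicate 2 in the other 8. No gene was lowest on a DMSO array. Gene by gene, the median difference was -0.69 for RIF replicate 1 minus DMSO replicate 1, with all 34 genes below 0, and -0.42 for RIF replicate 1 minus DMSO replicate 2. It was -0.43 for RIF replicate 2 minus DMSO replicate 1 and -0.25 for RIF replicate 2 minus DMSO replicate 2, where 26 genes were below 0 and 8 above. Between the 2 RIF arrays alone the median difference was -0.26, and between the 2 DMSO arrays 0.21. The smallest of the differences between groups was therefore no larger than the difference between replicates of 1 group. When RIF replicate 1 was left out the median was -0.41, with 30 genes below 0, and when RIF replicate 2 was left out it was -0.64, with all 34 below 0. Leaving out DMSO replicate 1 gave -0.37 and 29 genes, and leaving out DMSO replicate 2 gave -0.63 and 32 genes.

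**Figure D2:**
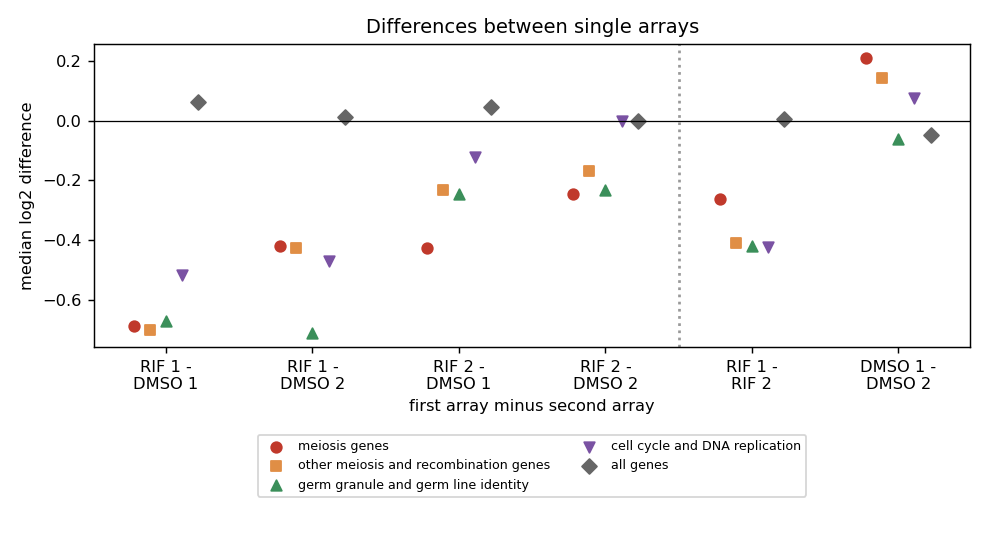
Median log2 difference (y axis) of 5 groups of genes for each pair of single arrays (x axis), RIF minus DMSO left of the dotted line and replicate 1 minus replicate 2 right of it. The meiosis genes lie at -0.69 to -0.25 between groups, and at -0.26 and 0.21 within them.

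Proteins of the central region of the synaptonemal complex span the gap between the paired chromosomes. The gene syp-3, which encodes one of them, was the 1 gene called lower. Its values were 3.81 and 3.63 on the RIF arrays, against 4.81 and 4.75 on the DMSO arrays. Each RIF value lay well below each DMSO value, and the replicates of a group were close together. The log2 difference was -1.06 (standard error 0.15, 95% interval -1.48 to -0.64, adjusted p = 0.336 from limma), a 2.09-fold lower level with RIF. Without RIF replicate 2 it was -0.97 and short of 2-fold. Its probe set has an ending that marks probes shared with other transcripts, and the gene has no other. In the RefSeq annotation of WBcel235 the gene spans 8663048 to 8664120 on chromosome I. The gene syp-2, whose protein also lies in the central region, read 4.76 and 4.47 with RIF and 5.41 and 5.54 with DMSO. Its log2 difference of -0.86 (standard error 0.18) was not called, for it was under 2-fold, and it was called when RIF replicate 1 was left out. For syp-4 the arrays read 3.02 and 3.42 with RIF and 3.80 and 3.44 with DMSO, so that the nearest values of the groups almost met (-0.40, standard error 0.23). The fourth gene, syp-1, had overlapping groups, with 5.95 and 6.27 with RIF and 6.09 and 6.53 with DMSO (-0.20, standard error 0.23). The products of these genes need each other to assemble. Their differences ran from -0.20 to -1.06. The intervals of syp-3 (-1.48 to -0.64) and syp-1 (-0.84 to 0.43) overlap, and the difference between them was not tested.

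The axis genes encode the HORMA-domain proteins HTP-3, HIM-3, HTP-1 and HTP-2, and LAB-1, which protects cohesin between sister chromatids. None of the 5 was called. The value furthest from 0 was that of lab-1, which read 4.12 and 3.73 with RIF and 4.58 and 5.05 with DMSO (log2 difference -0.89, standard error 0.25, 95% interval -1.58 to -0.19). It was called without DMSO replicate 1 (-1.12). The gene him-3 had values of 6.54 and 6.69 with RIF and 7.40 and 6.94 with DMSO (-0.56). Its other probe set read 4.24 and 4.35 with RIF and 5.26 and 5.32 with DMSO. The difference on that probe set, -0.999 (standard error 0.14), was just short of 2-fold. The closely related genes htp-1 and htp-2 differed by -0.50 and -0.12. For htp-1 the groups did not overlap, but DMSO replicate 2, at 5.44, was near the RIF values of 5.18 and 5.36. For htp-2 all values lay between 5.12 and 5.38. The value of htp-3, which recruits the other axis proteins, was -0.43 with overlapping groups. Among the kleisins, the ring-closing subunits of cohesin, rec-8 had a difference of -0.37 without overlap (3.97 and 4.24 with RIF, 4.62 and 4.33 with DMSO), and coh-3 had the value nearest to 0 of the 34 genes (-0.02). Since coh-3 and coh-4 are near-identical copies, signal from coh-4 on the probe set of coh-3 is possible, and it was not tested.

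The 4 pairing centre genes are neighbours. In the RefSeq annotation of WBcel235 zim-1, zim-2, zim-3 and him-8 follow each other on chromosome IV with no other protein-coding gene between them, from 10547086 to 10563974. HIM-8 binds the pairing centre of the X chromosome and the ZIM proteins bind those of the autosomes. Their differences were -0.83 for zim-1, -0.72 for zim-2, -0.67 for zim-3 and -0.62 for him-8, and none was called. The gene him-8 had the smallest standard error of the 4. It read 4.96 and 4.98 with RIF and 5.80 and 5.39 with DMSO (standard error 0.20, 95% interval -1.17 to -0.08). For zim-2 the values were 2.35 and 2.99 with RIF and 3.36 and 3.42 with DMSO. The call of lower was reached for zim-2 without RIF replicate 2 (-1.04) and for zim-3 without DMSO replicate 2 (-1.01). The value of zim-1 rested on 1 array. DMSO replicate 1 read 3.54, whereas DMSO replicate 2 read 1.86, between the RIF values of 1.743 and 2.004. Without DMSO replicate 1 its difference was 0.011, and without DMSO replicate 2 it was -1.67 and called.

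SUN-1 sits in the inner nuclear membrane and passes the movements of the cytoskeleton to the pairing centres. The gene sun-1 read 6.27 and 6.32 with RIF and 6.80 and 7.13 with DMSO, with no overlap (log2 difference -0.67, standard error 0.18, 95% interval -1.16 to -0.18). Its other probe set gave -0.62, with 5.10 and 5.48 with RIF and 6.14 and 5.69 with DMSO. The polo-like kinase gene plk-2, whose product acts at pairing centres, had overlapping groups (-0.45) on the brighter probe set and non-overlapping ones on the other, at 2.18 and 2.63 with RIF and 3.13 and 2.98 with DMSO (-0.65). The checkpoint-like kinase gene chk-2, a master regulator of early prophase, was near background at 1.01 and 1.13 with RIF and 1.71 and 1.34 with DMSO, with a difference of -0.45. A probe set that names chk-2 together with fars-2 was also within the range of the foreign controls, with a difference of 0.16. The gene pch-2, whose product remodels HORMA-domain proteins, had overlapping groups (-0.07, 95% interval -0.69 to 0.55).

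Among 7 genes of double-strand break formation, 4 had groups without overlap, with RIF lower, and none was called. Of all genes 16% had RIF as the lower group without overlap, and 870 of the 3467 genes of like level did. The gene spo-11 itself read 3.89 and 3.66 with RIF and 4.94 and 4.30 with DMSO (log2 difference -0.84, standard error 0.27, 95% interval -1.60 to -0.09), and it was called without DMSO replicate 2 (-1.16). The gene dsb-2, whose product promotes breaks, read 4.87 and 5.18 with RIF and 5.54 and 5.84 with DMSO (-0.67, standard error 0.20), and -0.76 on its other probe set. Its relative dsb-1 had a value of -0.38 with overlapping groups, and 0.0068 without DMSO replicate 1. For him-5, which is needed for breaks on the X chromosome, the arrays gave 2.82 and 2.27 with RIF and 3.36 and 3.21 with DMSO (-0.74, standard error 0.24). It was called without RIF replicate 1 (-1.02). The chromatin factor gene him-17 overlapped between groups, and its value of -0.45 came from DMSO replicate 1, which read 6.24 where the other 3 arrays read 5.00 to 5.41. It was 0.13 without that array, and -1.04 and called without DMSO replicate 2. MRE-11 and RAD-50 form a complex that trims broken ends. The gene rad-50 had a 2.02-fold lower mean with RIF but was not called. It read 4.05 and 5.21 on the RIF arrays, against 5.78 and 5.50 on the DMSO arrays (-1.01, standard error 0.44, 95% interval -2.21 to 0.18), so that the RIF arrays differed more from each other than the means of the groups did. The difference was -0.44 without RIF replicate 1, and -1.59 and called without RIF replicate 2. Its partner mre-11 had a value of -0.26 with overlapping groups, and -0.31 on its other probe set.

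Of the 4 genes that repair breaks by strand exchange, 1 had groups without overlap, with RIF lower, against 16% of all genes. None was called (median -0.31). The recombinase gene rad-51 had a difference of -0.40, from 5.49 and 5.99 with RIF and 6.35 and 5.93 with DMSO, with overlapping groups. BRC-1 and BRD-1, the worm forms of BRCA1 and its partner BARD1, form a ubiquitin ligase. The gene brc-1 had a value of -0.09, and -0.38 on its other probe set, and brd-1 had -0.42 with a wide interval (-1.78 to 0.95), since RIF replicate 1 read 3.57 and RIF replicate 2 read 4.83. For him-18, whose product is a scaffold for nucleases, both RIF arrays read 5.05, equal to the last digit given, as in 241 of all probe sets, and the DMSO arrays read 5.23 and 5.31. Its groups did not overlap, though the difference was only -0.22 (95% interval -0.60 to 0.16).

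In all 4 crossover genes the groups did not overlap, with RIF lower, and again none was called. The share with RIF lower and no overlap was 16% over all genes, and 870 of the 3467 genes of like level. With so few genes in a role, the roles were not compared by a test. ZHP-3, a RING-finger protein, and COSA-1, a cyclin-like protein, mark the sites that become crossovers. The gene zhp-3 read 4.23 and 4.34 with RIF and 4.66 and 5.44 with DMSO (log2 difference -0.76, standard error 0.31), and its dimmer probe set read 2.58 on both RIF arrays and 3.12 and 3.27 on the DMSO arrays (-0.61, standard error 0.15). Without DMSO replicate 1 the difference of zhp-3 on its brighter probe set was -1.15. The values of cosa-1 were low, at 1.83 and 2.09 with RIF and 2.25 and 2.80 with DMSO (-0.57). HIM-14 and MSH-5 form a clamp on recombination intermediates. The gene msh-5 read 2.80 and 3.02 with RIF and 3.47 and 3.36 with DMSO (-0.50, standard error 0.16, 95% interval -0.94 to -0.06), but only -0.10 on its dimmer probe set, where the groups overlapped. For him-14 the values were 1.67 and 1.19 with RIF and 2.14 and 1.94 with DMSO (-0.61), with the mean of RIF within the range of the foreign controls. A probe set that the annotation assigns to both msh-4 and him-14 gave -0.54, also near background.

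**Figure D3:**
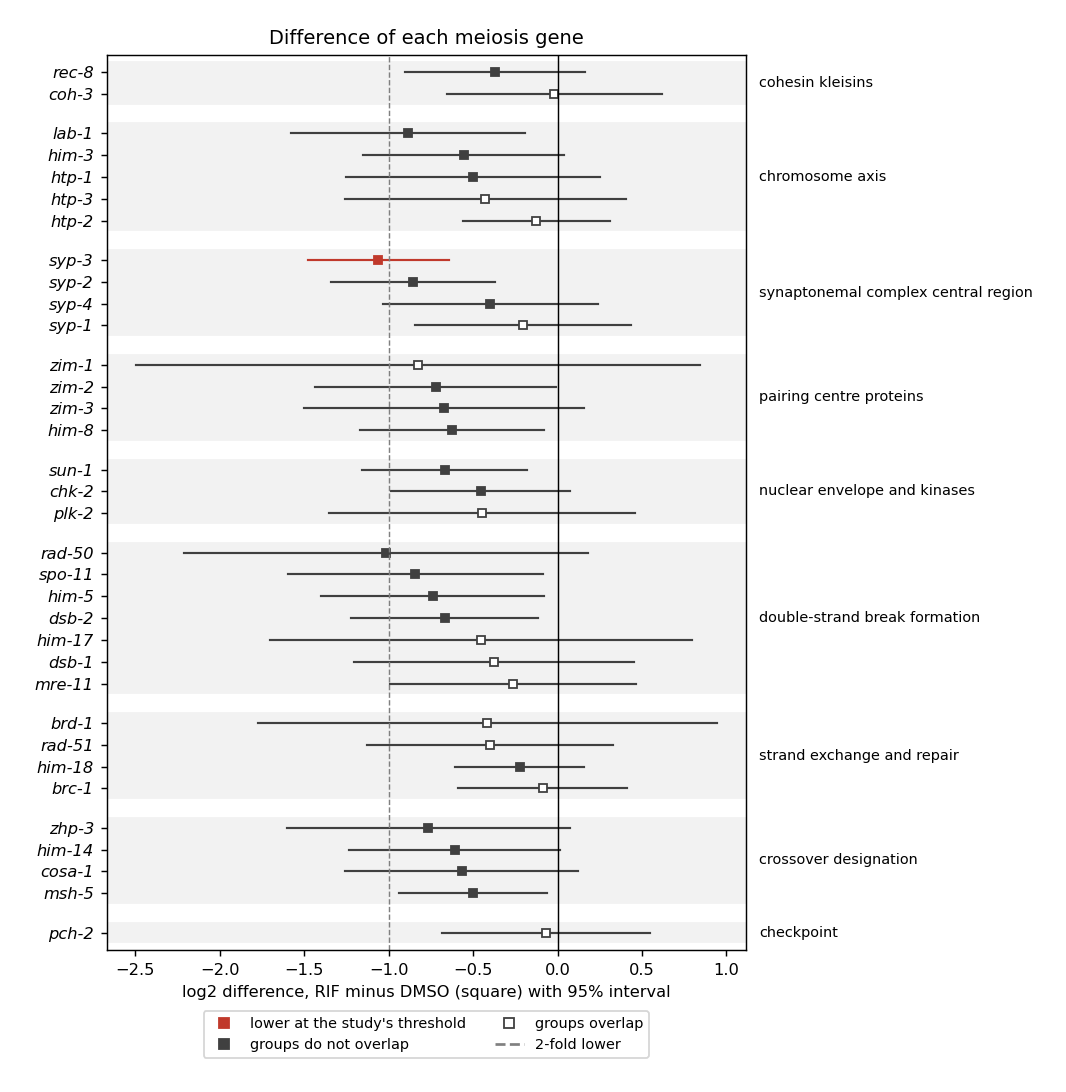
Log2 difference, RIF minus DMSO (x axis), of each of 34 meiosis genes (y axis, grouped by role) with the 95% interval from limma. All squares lie below 0, the intervals of 24 of them reach past 0, and syp-3 at -1.06 is the 1 gene called lower.

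Of the 34 genes, 8 have another probe set of their own. All 8 of these probe sets had a value below 0 as well, from -0.10 for msh-5 to -0.999 for him-3, and none was called. Shared probes are marked by the endings of 15 of the 34 probe sets. With such probe sets left out, 23 meiosis genes could be measured, with a median of -0.61, and 0 were called. The weakest signals, near or just above the foreign controls, and the strongest ones, him-3 and sun-1, had values on the same side of 0. The genes lie on chromosomes I (6), II (3), III (4), IV (12) and V (9) in RefSeq's WBcel235, with none of the 34 on X, which carries 13.8% of all genes with a known place. The median difference of all genes on X was 0.08.

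**Figure D4:**
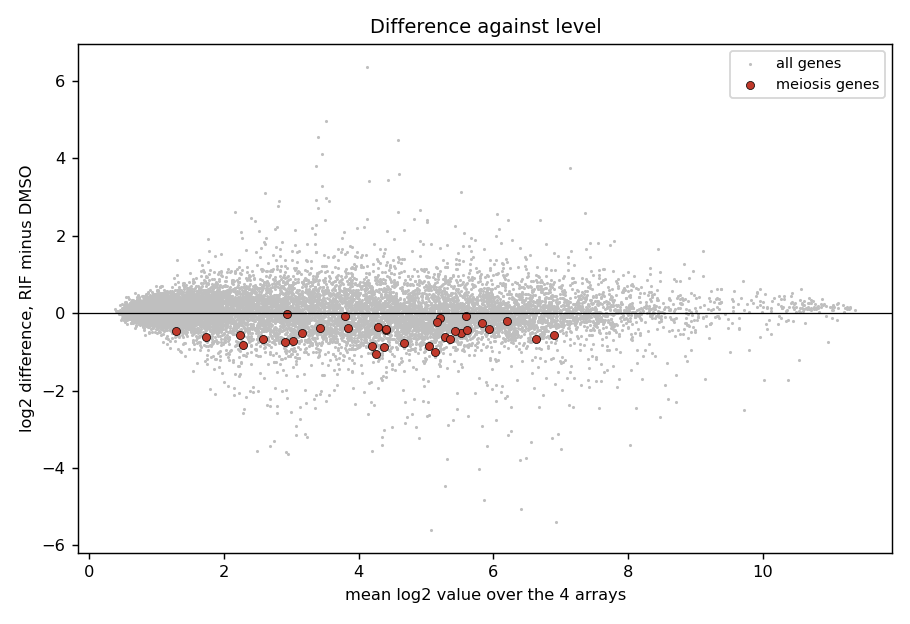
Log2 difference, RIF minus DMSO (y axis), against the mean log2 value over the 4 arrays (x axis) for 17118 genes (grey) and 34 meiosis genes (red). The meiosis genes span levels from 1.30 to 6.90 and all lie between -1.06 and -0.02.

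Other genes of meiosis and recombination also had a median below 0. Of 54 listed, 53 were measured, among them further cohesin subunits, nucleases, damage sensors and mismatch repair genes. Their median was -0.45, and -0.37 in the 39 with a probe set without a shared ending (-0.61 for the meiosis genes). There were 45 values below 0 and 29 genes without overlap in which RIF was the lower group. In the other direction there were 8 values above 0 and 1 gene without overlap. Of all 17118 genes, 7568 had a value below 0 and 2735 had RIF as the lower group without overlap. Among the 3467 genes with levels like those of the 34 meiosis genes, these counts were 1949 and 870. Of the 53, hal-2 was called lower and 0 were called higher, with 0 higher at an unadjusted p under 0.05 as well. HAL-2 is required for the synaptonemal complex to load on paired chromosomes. It read 3.30 and 3.68 with RIF and 4.58 and 4.60 with DMSO (log2 difference -1.10, standard error 0.19, adjusted p = 0.396 from limma). As with the 34 genes, the list was lower on RIF replicate 1 than on RIF replicate 2, in 46 of 53 genes, and its median was -0.26 without RIF replicate 1. The number called lower was 0 without RIF replicate 1, 7 without RIF replicate 2 and 3 without DMSO replicate 1.

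Lists for other parts of the germ line also had medians below 0. For 30 genes of germ granules and germ line identity the median was -0.45, with 1 called lower and 0 higher. The one was glh-4, which encodes a helicase of germ granules (2.75 and 3.71 with RIF, 4.29 and 4.33 with DMSO, log2 difference -1.08). Leaving out RIF replicate 1 gave the list a median of -0.22, and leaving out RIF replicate 2 gave -0.69. In this list 0 were called with the methods' t-test, without RIF replicate 1 or without DMSO replicate 1, 4 without RIF replicate 2 and 3 without DMSO replicate 2. The median was -0.43 for 22 oocyte and eggshell genes and -0.29 for 46 genes of the cell cycle and DNA replication, with 0 called in either list. At an unadjusted p under 0.05, 2 oocyte genes and 1 cell cycle gene were lower. Without RIF replicate 2 the calls numbered 2 and 6. The cell cycle list had a median of -0.52 between RIF replicate 1 and DMSO replicate 1, but -0.0019 between RIF replicate 2 and DMSO replicate 2, and -0.09 without RIF replicate 1. For 30 sperm genes it was -0.17, and 14 of them, spe-9 and gsp-3 included, had both group means within the range of the foreign controls. The sperm median was 0.15 without DMSO replicate 2 and 0.0020 without RIF replicate 1. Without RIF replicate 1 the median was -0.41 for the meiosis genes, -0.22 for germ granule genes and -0.29 for oocyte and eggshell genes. In the same order the medians were -0.64, -0.69 and -0.58 without RIF replicate 2. They were -0.37, -0.46 and -0.30 without DMSO replicate 1, and -0.63, -0.52 and -0.55 without DMSO replicate 2. Which list lay lowest thus changed with the array left out. Differences between the lists were not tested.

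Among markers of other tissues, several genes of muscle were lower with RIF. Of 12 genes of the body wall muscle, 7 were called lower and 0 higher, against 1.55% and 1.27% of all genes. The median of the 12 was -1.24, with 1 value above 0. In 2 of them both group means lay within the range of the foreign controls. The medians of the 12 were 4.44 and 3.69 on the RIF arrays and 5.70 and 5.26 on the DMSO arrays. Between the RIF arrays these genes ran the other way from the meiosis genes, with a median of 0.51 for RIF replicate 1 minus RIF replicate 2, against -0.26. Only 3 were called with the methods' t-test, 4 without RIF replicate 2 and 5 without DMSO replicate 1. The largest differences were those of unc-27 (-2.28), tnt-2 (-2.21), both of the troponin complex, and unc-15 (-1.93), which encodes paramyosin. Of 13 neuronal genes, 11 had a value above 0 and 9 had no overlap with RIF as the higher group, against 9519 and 3922 of 17118 genes. None was called (median 0.42), with 1 higher at an unadjusted p under 0.05. The neuronal median was 0.24 without RIF replicate 1 and 0.19 without DMSO replicate 2, and 1 gene was called higher without RIF replicate 2 or without DMSO replicate 1. The 13 intestinal genes had a median of -0.02, with vha-6 called lower and gtl-1 called higher. With the methods' t-test 0 were called. The count was 0 lower without RIF replicate 1, RIF replicate 2 or DMSO replicate 1, and 0 higher without either DMSO array. Of the 7 genes of the somatic gonad that were measured, 6 had values above 0 (median 0.29), against 9519 of 17118 genes, and 0 were called. In 2 of the 7 both group means lay within the range of the foreign controls. Leaving out 1 array gave medians of 0.14 (RIF replicate 1), 0.45 (RIF replicate 2) and 0.18 (DMSO replicate 2), and 1 gene was called higher without DMSO replicate 1. Whether the make-up of the worms or the low 5′ minus 3′ signal of DMSO replicate 2 had a part in the values of the meiosis genes was not tested. The median of the 34 genes was -0.63 without that array and -0.50 with it.

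**Figure D5:**
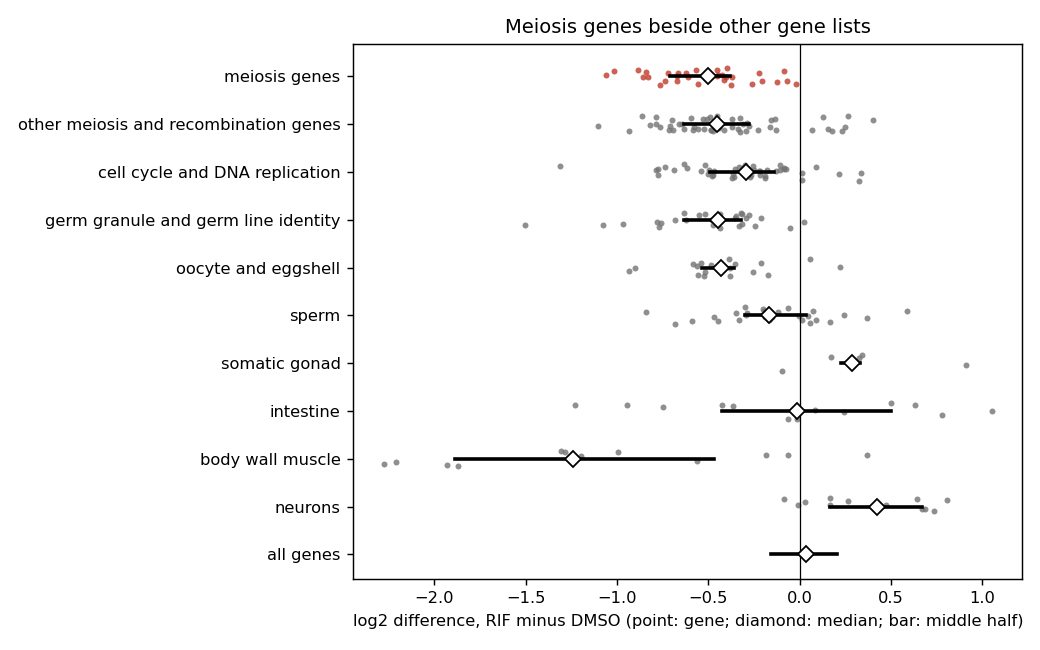
Log2 difference, RIF minus DMSO (x axis), for the genes of each list (y axis; points: genes, diamonds: medians, bars: middle part between the quartiles). The meiosis genes have a median of -0.50 and none above 0, muscle genes lie lower (-1.24) and neuronal genes above 0 (0.42).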

How the data were processed

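RNA of whole worms was hybridised to Affymetrix arrays, 2 per group. The authors deposited a log2 value per probe set and array. RMA and Affymetrix Expression Console are named in the submitters' notes, whereas GeneSpring GX (default settings) is named in the methods. RMA brings arrays to a common distribution, so a change shared by most genes would not be seen. No depth applies to arrays, and the number of arrays limits the precision. The labels call the replicates biological, without more detail, and p-values measure the spread between these arrays.

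From these values, 77 controls were left out and 22548 probe sets were compared, RIF minus DMSO and two-sided, by lmFit and eBayes of limma 3.58.1 (R 4.3.3), with no trend and no filter on level. Genes were called at an unadjusted p under 0.05 and at least 2-fold, and p-values were adjusted by Benjamini-Hochberg over all probe sets. In the annotation 20766 probe sets name 1 gene, 887 several and 895 none. limma used 2 residual and 2.11 prior degrees of freedom. An exact permutation test of 2 against 2 arrays cannot go below 0.333 and was not used. Alternatives were another test, prior, block, centring, filter, choice of probe set and fold threshold, and each array left out. The procedure was tested on simulated data. Every meiosis gene with a probe set of its own is named, and up to 3 called genes of each other list. The genes and lists were chosen with earlier results of these data known. The 34 genes are described by counts and medians beside those of all genes, without a test of the group. Sequences and promoters were not analysed here.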

Additional observations from a re-analysis of the deposited data

How the results depend on the processing

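Under every alternative run that could move it, the median of the meiosis genes kept its sign. It ranged from -0.37 without DMSO replicate 1 to -0.66 after centring on ribosomal protein genes. That centring shifted the median of all genes by over 0.1, to -0.13. The t-test, the trend and robust prior and the replicate block alter only p-values, so the median could not move under them. The count of meiosis genes called lower, 1 as reported, was 2 to 5 with 1 array left out, 5 with ribosomal centring (syp-2, syp-3, spo-11, rad-50 and lab-1), 9 at a 1.5-fold threshold and 0 without probe sets with shared endings. It was 1 with a trend and robust prior in limma, with the methods' t-test, with quantile or median centring, a filter on low values and the mean of all probe sets of a gene, and 0 were called higher throughout. The genes without overlap, 21 as reported, numbered 23 to 32 with 1 array left out, an alternative added after seeing the data. Fewer arrays make overlap less likely by construction. The share of all genes in these settings is not given here, so no conclusion is drawn from these counts. With the replicate number as a block, where nothing says that a number marks a shared culture and the deviations of same-numbered arrays correlated at 0.10, 1 gene was called lower and 11, in place of 10, had an unadjusted p under 0.05. The methods' t-test gave 3. Of all genes, 266 were lower and 218 higher as reported, 101 and 90 with the methods' t-test, 604 and 552 at 1.5-fold, 161 lower without shared endings (fewer genes tested), 143 higher with ribosomal centring, and 229 to 487 lower and 166 to 346 higher with 1 array left out. Single genes changed sign with 1 array left out: syp-1 (-0.42 to 0.014), him-17 (-1.04 to 0.13), coh-3 (-0.21 to 0.18), zim-1 (-1.67 to 0.011), brc-1 (-0.23 to 0.058), brd-1 (-1.05 to 0.22), dsb-1 (-0.76 to 0.0068) and pch-2 (-0.31 to 0.18). These were among the 13 genes whose groups overlap. The cause of these changes was not tested. Signals near the foreign controls, as for chk-2 and him-14, limit what can be measured.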
